A study of Mus musculus with 2 samples.

Results

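The interleukin-1 (IL-1) family and the inflammasome were followed through 9 genes: Il1a, Il1b, Il1rn, Il18, Il1r1, Il1rap, Nlrp3, Casp1 and Pycard. They were taken by name, as the probes that carry one of these gene names on the arrays, and 12 probes of 35019 gene names and 55669 usable probes met that rule. The samples were microglia, which are macrophages that live in the brain and spinal cord, sorted from mouse spinal cord. The control sample came from control mice and is titled normal, and the atopic diathesis sample came from mice of a model of the tendency towards allergic disease and is titled activated. Total RNA of each was hybridised to 1 array of the same slide, so each group has 1 array, and the effect of its place on the slide cannot be told apart from the group. How the model was made, the strain and age of the mice and the number of mice per sample are not given in the sources used here.

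Interleukin-1 alpha and beta are cytokines that start inflammatory responses through 1 receptor, made of the ligand-binding chain encoded by Il1r1 and the accessory chain encoded by Il1rap. Il1rn encodes a secreted antagonist that occupies that receptor without signalling. Interleukin-1 beta and interleukin-18 are made as inactive precursors, which caspase-1 cuts once a sensor such as NLRP3 has assembled an inflammasome through the adaptor ASC, the product of Pycard. In the brain and spinal cord, microglia are a main source of interleukin-1, and interleukin-1 in the spinal cord is known for its part in inflammatory pain and glial activation.

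With 1 array per group no test between the groups can be made, no p-value is given, and differences between mice were not measured. Differences are log2 ratios, atopic diathesis over control, centred on the median of the 9217 genes well above background on both arrays, and "higher" or "lower" means at least 2-fold on that scale. A probe that passed this level on 1 array alone is given a bound, the bright signal over the lowest signal well above background on the dim array or the probe's own signal there, whichever is higher. Intervals are 95% intervals from the scatter of repeated spots within an array, and they cover spot error only.

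Among the 5 members measured on both arrays the largest difference was in Il1b, the gene of interleukin-1 beta, at 9.67-fold higher in the atopic diathesis sample, while Il1a was 2.75-fold lower. The receptor chain Il1r1 was well above background in the atopic diathesis sample only. Casp1, Pycard and Il18 lay within 2-fold, and all probes of Il1rn, Il1rap and Nlrp3 stayed near background on both arrays. Of the 12 probes, 5 were measured on both arrays, against 20.2% of all probes. 1 was measured on the atopic diathesis array only, against 7.40% of all probes, and 6 on neither, against 68.5% of all probes. Of the 5 measured probes, 1 was higher and 1 was lower, in a background where 33.9% of all 11263 measured probes lay outside 2-fold, 17.6% of them higher and 16.3% lower. The members' median log2 difference was 0.19, and that of all measured probes was 0.00. Scaling to the 75th percentile of all probes moved the median of all measured probes to -0.50, and the share of higher among all calls from 51.9% to 28.2%. Scaling to the median of all probes gave -0.59 and 24.2%, and quantile normalization gave -0.16 and 41.8%.

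The 3 probes that carry these differences are shown by their first 30 bases of 60, 5′ to 3′, because a single probe stands for each gene. None of them shares a 20-base window with a probe of another gene on the array. In build mm9, the Il1b probe lies at chr2:129190347-129190406 on the minus strand, the Il1a probe at chr2:129125994-129126053 on the minus strand, and the Il1r1 probe at chr1:40372667-40372726 on the plus strand.
Il1b: aggttcctataatatggatgagaattttta
Il1a: aatgccagttgagtaggataaaggtataag
Il1r1: tacttagatttcaccgtactttctgatggt

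Il1a and Il1b are neighbouring cytokine genes on chromosome 2 that differed in opposite directions, so the 250 bases before the start of each are shown side by side, from RefSeq on build GRCm38.p6. The Il1b promoter covers chr2:129371140-129371389 and that of Il1a chr2:129309973-129310222, both on the minus strand. Capitals mark the letters TATAAA (the core of a promoter element that positions transcription), GAGGAA (a core bound by the myeloid factor PU.1) and TGACTCA (an AP-1 site), searched on both strands.
Il1b: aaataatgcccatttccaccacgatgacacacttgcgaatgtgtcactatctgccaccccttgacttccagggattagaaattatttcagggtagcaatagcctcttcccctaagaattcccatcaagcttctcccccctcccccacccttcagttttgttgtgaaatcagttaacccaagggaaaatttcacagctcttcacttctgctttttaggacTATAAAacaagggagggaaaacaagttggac
Il1a: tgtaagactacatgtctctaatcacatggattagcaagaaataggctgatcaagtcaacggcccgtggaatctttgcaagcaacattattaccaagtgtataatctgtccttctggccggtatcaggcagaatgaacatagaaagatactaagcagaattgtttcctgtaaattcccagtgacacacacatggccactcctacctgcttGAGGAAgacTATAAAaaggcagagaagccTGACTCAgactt

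Both promoters hold TATAAA at nearly the same place, from -31 to -26 in Il1b and from -32 to -27 in Il1a, counted back from the start. These letters are found in 12.4% of all 32817 promoter windows of this length, and 3 of the 13 windows of the 9 genes hold them (Il1a, Il1b and, on the opposite strand, Il18). GAGGAA stands at -41 to -36 and TGACTCA at -12 to -6 in Il1a, and neither is in the Il1b window. Of all windows, 23.3% hold GAGGAA and 4.46% hold TGACTCA, against 4 and 2 of the members' windows. A loose form of the site of the factor NF-kappaB (3 times G, any 5 bases, 2 times C), which overlaps none of the other matches in the members' windows, is in 45.8% of all windows and in 6 of the members' 13, and in neither of the Il1a and Il1b windows. These matches describe letters only, and the arrays did not measure binding.

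Il1b encodes the precursor of interleukin-1 beta. Its probe is printed 10 times on each array, which gives the only direct spread of a member. On the control array 9 usable spots ran from 20.5 to 34.2 with a median of 26.2 (processed signal, in units of fluorescence intensity), and on the atopic diathesis array 10 spots ran from 229 to 269 with a median of 251. Every atopic diathesis spot was above every control spot, and the lowest atopic diathesis spot was 6.03 times the highest control spot when the excluded outlier spot of 38.1 was counted and no centring was applied. The mean signals were 26.4 and 249, a log2 difference of 3.27 (interval 3.07 to 3.48), or 9.67-fold higher.

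**Figure D1:**
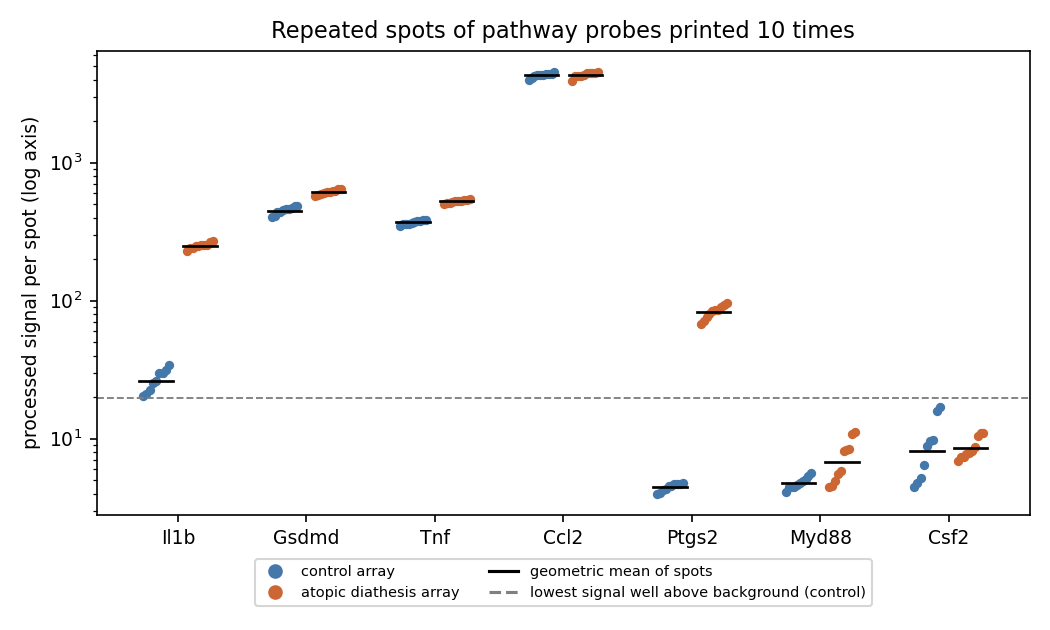
Each point is 1 usable spot of a probe printed 10 times, as processed signal on a log axis, for the 7 pathway genes with such probes; bars are geometric means and the dashed line is the lowest control signal well above background. The Il1b spots of the arrays do not overlap, the Ccl2 spots do, and the control spots of Il1b lie just above the line.

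The Il1b level on the control array was close to the detection limit. Only 6 of its 9 usable spots were well above background there, the lowest signal of any probe well above background being 19.8, while all 10 spots passed on the atopic diathesis array. Before background subtraction the control spots read 103 to 112 over a local background of 50 to 52, and the atopic diathesis spots 295 to 365 over 51 to 53. The size of the difference therefore moved with the background correction, to a log2 difference of 1.78 with the normexp method and 1.60 without correction, still higher in both. When every usable spot had to be well above background, Il1b was detected on the atopic diathesis array only. Its bound was then 9.67-fold, which is the same ratio of the 2 mean signals as before. The control mean was above the lowest signal well above background, so this bound adds no support of its own.

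Of all measured probes, 1.97% had a difference as high as that of Il1b. Among the 1518 measured probes with a control signal of 20 to 40, like that of Il1b, 37.7% were higher, 8.04% were as high as Il1b and 0 were lower, since a probe that dim cannot fall by 2-fold and still be measured. Among those with a control signal of 100 to 1000, 13.3% were higher. Among the 101 measured probes printed 10 times, 25.7% were higher, and 2 had a difference of at least that of Il1b, Il1b itself being 1 of them.

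**Figure D2:**
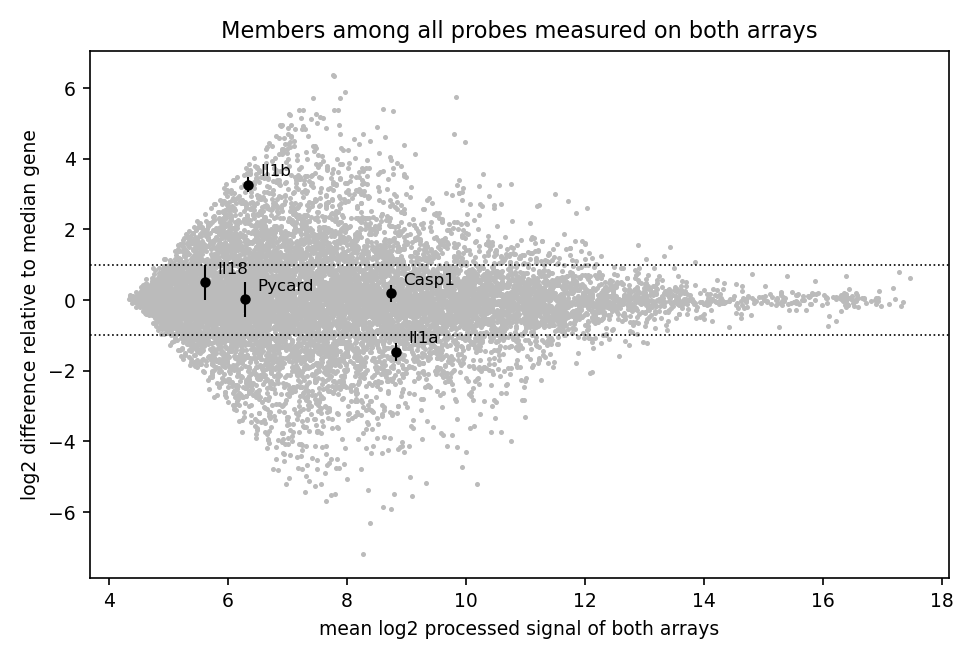
Each grey point is 1 of the 11263 probes measured on both arrays, by mean log2 signal and log2 difference (atopic diathesis minus control); black points are the 5 measured members with 95% spot intervals, and dotted lines mark 2-fold. Il1b at 3.27 lies near the upper edge of the dim probes and Il1a at -1.46 below the lower line.

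Il1a encodes interleukin-1 alpha, which is active as a precursor and needs no inflammasome. Its single spot read 760 in control and 270 in atopic diathesis. Both signals were far above the detection limit, and the gene was lower in the atopic diathesis sample. The log2 difference was -1.46 (interval -1.71 to -1.21), or 2.75-fold lower. It stayed at least 2-fold lower under all 10 other settings tried for it, but these are not all independent. With 1 usable spot per array, keeping outlier spots or requiring every usable spot to be well above background could move it only through the centring. The values deposited with the series (-1.49) nearly repeated quantile normalization (-1.49). A difference at least as low was found in 10.2% of all measured probes. Among the 4900 measured probes with a control signal of 100 to 1000, 25.2% were lower and 17.1% were at least as low as Il1a.

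Il18 encodes interleukin-18, the second cytokine that caspase-1 matures. Its signals were 41.5 in control and 57.7 in atopic diathesis. The log2 difference was 0.51 (interval 0.02 to 1.0), within 2-fold, and it came to -0.09 when the arrays were scaled to the median of all probes, so no direction is given. Il1rn, which encodes the receptor antagonist, read 7.87 in control and 8.75 in atopic diathesis. Neither signal was well above background, so no level of the antagonist can be set beside that of the cytokines.

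Il1r1 encodes the chain of the receptor that binds both interleukin-1 alpha and beta. It read 4.58 in control, not well above background, and 115 in atopic diathesis, well above it. The bound was at least 5.93-fold higher. Bounds of at least 2-fold were common among probes detected on the atopic diathesis array only, at 59.9% of 4122 probes, and 21.5% of them had a bound as high as that of Il1r1. The bound fell to 2.19 with normexp, to 1.90 without background correction and to 4.19 with the 75th percentile of all probes. It rests on 1 spot per array.

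Il1rap encodes the accessory chain that the receptor needs to signal. Its 3 probes read 5.09, 7.98 and 4.75 in control and 4.84, 4.58 and 4.74 in atopic diathesis. None was well above background, so the array that detected Il1r1 did not detect its partner chain.

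Endothelial cells of the central nervous system are known for high Il1r1, and markers of that cell type moved between the arrays, in both directions. Of 6 endothelial genes, Pecam1 was well above background in atopic diathesis only (5.64 and 127, at least 6.57-fold higher), and 1 of 3 Flt1 probes in control only (328 and 5.07). Of 2 Kdr probes, 1 was measured on both arrays (128 and 104, log2 difference -0.27) and the other, printed 10 times, on neither. Cldn5, Cdh5 and Tek stayed near background on both arrays, at 4.11 to 7.76. The summed signal of the list was 488 in control and 267 in atopic diathesis. The part of these cells in the Il1r1 result was not tested.

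Nlrp3 encodes the sensor that senses cell damage and ion efflux and nucleates the best known inflammasome. Its 2 probes read 4.92 and 4.63 in control and 5.56 and 4.68 in atopic diathesis. All 4 signals were below the level that counts as well above background, so a fall of Nlrp3, or a rise that stayed below that level, was not detectable on these arrays.

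Casp1 encodes caspase-1, the protease that cuts both cytokine precursors. It read 405 in control and 452 in atopic diathesis. Both signals were clearly detected, and the log2 difference of 0.19 had an interval of -0.06 to 0.44 that includes 0. Pycard encodes the adaptor ASC, which joins sensor and caspase. It read 78.3 in control and 78.0 in atopic diathesis, a log2 difference of 0.03 (interval -0.47 to 0.52). The spot intervals of both genes leave out a change of 2-fold on this scale. Other scalings moved them to as low as -0.41 for Casp1 and -0.57 for Pycard, also within 2-fold.

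**Figure D3:**
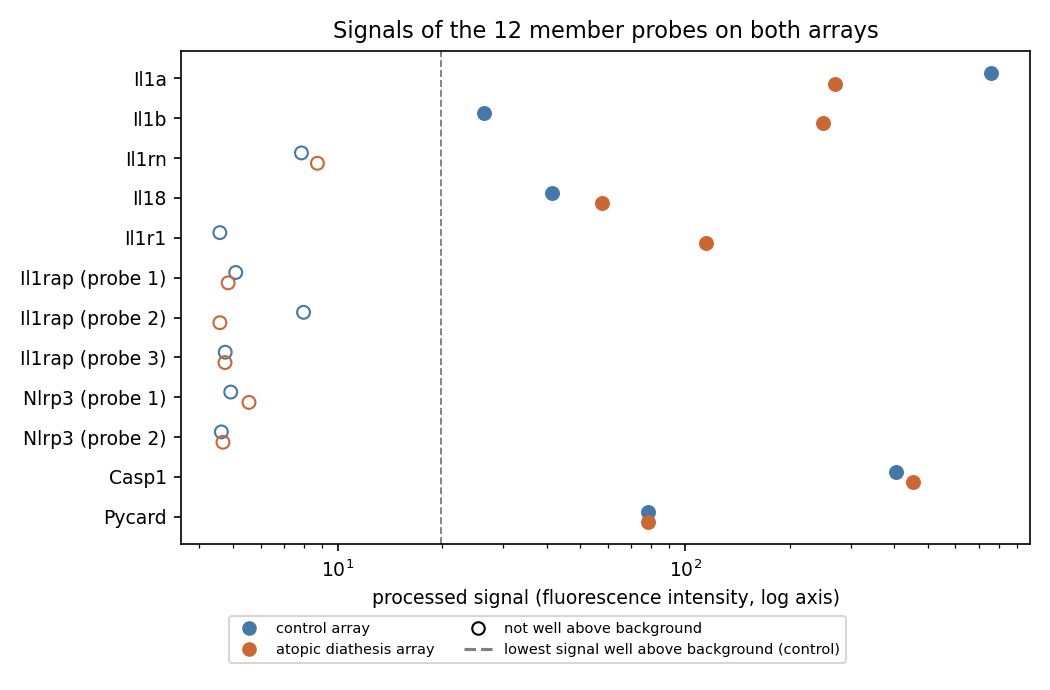
The processed signal of each of the 12 member probes is plotted on a log axis for both arrays; open circles were not well above background, and the dashed line marks the lowest control signal that was. Il1b and Il1a lie apart in opposite directions, Il1r1 is detected on 1 array only, and the probes of Il1rn, Il1rap and Nlrp3 lie below the line.

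The processing chosen decided on which side of 0 the small differences lay. For Il1b and Il1a it changed the size but not the side. Over the scalings, corrections and sources tried, Il1b stayed between 1.60 and 3.35 and Il1a between -2.06 and -1.20, with no change of side. Il18 ranged from -0.09 to 0.59, Casp1 from -0.41 to 0.27 and Pycard from -0.57 to 0.12, each across 0 and within 2-fold.

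**Figure D4:**
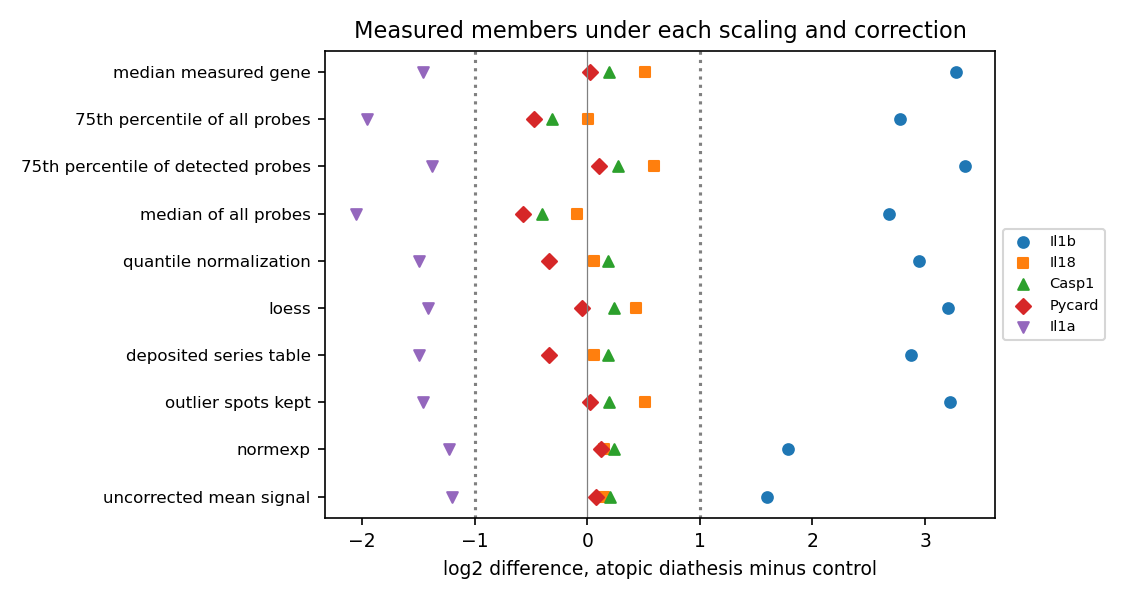
The log2 difference (atopic diathesis minus control) of the 5 measured members is plotted for each scaling, correction and source of values, with dotted lines at 2-fold. Il1b stays above the upper line and Il1a below the lower line, and the other members lie between the lines in each.

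The other genes of the pathway were described from 6 lists by role, with 75 genes besides the 9 members, of which 71 are on the array with 101 probes. Of these probes 37 were measured on both arrays, with 5 higher (13.5%), 8 lower (21.6%) and 24 within 2-fold. All measured probes had 17.6% higher and 16.3% lower. The median log2 difference of the 37 was 0.05. Of 9 further probes detected in atopic diathesis only, 8 had a bound of at least 2-fold higher, against 59.9% of all such probes. Of 6 detected in control only, 3 had a bound of at least 2-fold lower, against 51.9% of all 2166 such probes, and the remaining 49 stayed near background on both arrays. Most of these genes rest on 1 spot per array.

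Among the other ligands, Il33, an alarmin cytokine of the family, was detected in control only, at 41.5 against 4.34, a bound of at least 2.04-fold lower. The interleukin-18 binding protein gene Il18bp and the ligand Il1f10 were not well above background, and the 4 interleukin-36 genes of the list were not analysed here. Among the receptors, 1 of 3 probes of Il1rl1, which encodes the receptor of interleukin-33, was detected in atopic diathesis only (4.01 and 40.1, at least 2.07-fold higher). Its other probes read below 5 on both arrays. Besides Il1r1 and this probe, the receptor list's other 15 of 17 probes were not well above background, those of the decoy receptor Il1r2 and of the interleukin-18 receptor chains among them.

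Other sensors differed in both directions. Ifi204, an interferon-inducible DNA sensor, read 71.8 in control and 263 in atopic diathesis (log2 difference 1.90), and its other probe was detected in atopic diathesis only, at least 5.55-fold higher. Nlrp1a, a sensor of bacterial proteases, read 10283 and 21168 (1.07), and Nlrp1b was at least 4.39-fold higher at 1 of its 2 probes. Naip6, of a family that recognises bacterial flagellin and secretion systems, read 514 and 97.9 (-2.36). Its relatives Naip5 (0.04) and Naip2 (-0.19) had the smallest differences of the list. These sensor families hold near-identical copies, and the Naip5 probe shares sequence with probes of other genes, so the values of single copies are uncertain. Of the list's 22 probes, 15 were not well above background, including those of Aim2 and Nlrc4.

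Among adaptors, caspases, pore proteins and activators, 12 of 17 probes were measured. Of them 2 were higher (16.7%), 1 lower (8.33%) and 9 within 2-fold, against 17.6% higher and 16.3% lower over all measured probes. Brcc3, which encodes a deubiquitinase that acts on NLRP3, read 83.6 in control and 848 in atopic diathesis (log2 difference 3.38). Casp4, encoding the mouse caspase-11 of the noncanonical inflammasome, was at 1.04 and 0.97 at its 2 probes, 1 on each side of 2-fold. Casp8, the gene of an initiator caspase, read 335 and 140 (-1.22). Panx1, a membrane channel gene, was detected in atopic diathesis only (at least 4.99-fold higher). Ninj1, whose product ruptures the membrane of dying cells, was detected in control only (at least 4.25-fold lower). Besides Pycard, P2rx4, an ATP receptor gene, had the smallest difference (0.05). The other P2rx4 probe read 14.3 and 8.95, not well above background. Gsdmd, the gene of the pore protein that caspase-1 cuts, is printed 10 times. Its control spots ran from 406 to 482 and its atopic diathesis spots from 573 to 644, without overlap before centring. The log2 difference of 0.47 was within 2-fold and came to -0.12 with the median of all probes, so no direction is given.

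Of the signalling genes between the receptor and NF-kappaB, 14 of 32 probes were measured, with a median log2 difference of -0.07. Of these 1 was higher (7.14%), 4 lower (28.6%) and 9 within 2-fold, against 17.6% higher and 16.3% lower over all measured probes. Irak4, the first kinase recruited by MyD88, was higher at 1 probe (39.4 and 152, log2 difference 1.98). Its other probe read 4.03 and 4.36, not well above background. Lower were Chuk, the gene of the kinase IKK-alpha (1326 and 162, -3.0), and, at 1 probe, the ubiquitin ligase gene Traf6 (175 and 43.2, -1.99). The other Traf6 probes, at 4.43 and 4.49 and at 14.9 and 8.12, were not well above background. Also lower were Rela, the gene of the NF-kappaB subunit p65 (1631 and 594, -1.42), and Tab3, an adaptor of the kinase TAK1 (89.8 and 40.4, -1.12). Ikbkb, the gene of IKK-beta, was detected in atopic diathesis only (at least 2.91-fold higher), as was 1 of 3 probes of Map3k7, the gene of TAK1 (at least 2.26-fold higher). Irak2 (-0.02) and Tollip (-0.12), each measured at 1 probe, had the smallest differences. The other probes of both genes were not well above background. Myd88, the adaptor of the receptor, is printed 10 times and was not well above background, with spots of 4.10 to 5.61 in control and 4.46 to 11.1 in atopic diathesis.

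Genes that interleukin-1 is known to induce showed no common direction. Of 18 probes 8 were measured, with a median log2 difference of -0.04. None was higher, 2 were lower (25%) and 6 lay within 2-fold, against 17.6% higher and 16.3% lower over all measured probes. Lower were Zc3h12a, the gene of an RNase that degrades cytokine messages (1290 and 430, -1.55), and Tnfaip3, the gene of the NF-kappaB inhibitor A20 (509 and 235, -1.08). The chemokine gene Ccl2 (0.05) and Nos2, the gene of inducible nitric oxide synthase (-0.12), differed least. Ptgs2, the gene of cyclooxygenase-2, had 10 control spots of 4.0 to 4.78 and 10 atopic diathesis spots of 67.3 to 96.2, detected in atopic diathesis only and at least 4.26-fold higher. Sod2, a mitochondrial superoxide dismutase gene, was also detected there only (at least 3.54-fold higher). The chemokine gene Cxcl2 was detected in control only (525 and 4.72, at least 25.8-fold lower). Tnf, printed 10 times, ran from 347 to 381 in control and from 503 to 545 in atopic diathesis, a log2 difference of 0.54, within 2-fold, that came to -0.06 with the median of all probes.

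**Figure D5:**
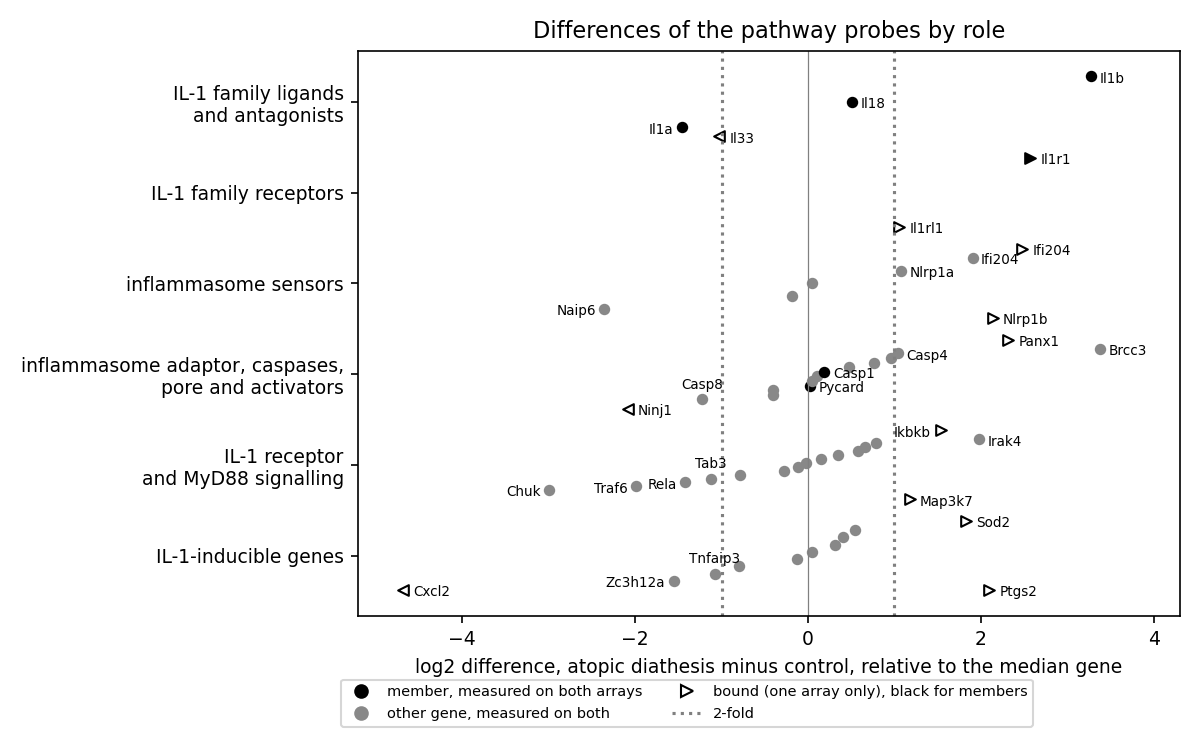
The log2 difference (atopic diathesis minus control) of each measured probe is plotted by list, members in black and other genes in grey; triangles are bounds of probes detected on 1 array only that reach 2-fold, and dotted lines mark 2-fold. Each list that has measured probes has points within 2-fold, and Il1b, Brcc3 and Chuk lie farthest out among probes measured on both arrays.

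Some of these calls depend on the scale. Over 11 settings, of which the deposited series table nearly repeated quantile normalization, none of the 15 called probes changed sign. Casp4 fell within 2-fold in 7 of them, Nlrp1a in 4, Tnfaip3 in 3, Casp8 and Tab3 in 2 each and Irak4 in 1, and the others, Il1b and Il1a among them, in none.

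The microglial label was checked against marker genes. Of 18 microglial genes 17 were well above background on both arrays, and all 23 of their measured probes lay within 2-fold, with a median log2 difference of -0.10. Spi1 was the gene not well above background. Neutrophils and monocytes are rich sources of interleukin-1 beta: of 10 neutrophil genes only Csf3r was well above background, at 19916 and 19649, the other probes reading from 3.96 to 19.4, and none of 5 monocyte genes was, with signals from 4.04 to 12.6. Summed signals were 19990 and 19732 for the neutrophil list and 48.6 and 52.6 for the monocyte list. Some glial markers differed: Gja1, an astrocyte gene, read 10.4 and 241, and Cldn11, an oligodendrocyte gene, 5.20 and 302. Other oligodendrocyte probes went the other way, 1 of 3 for Mbp at 267 and 15.8 and 1 of 3 for Mobp at 96.6 and 6.91, while another Mobp probe read 5.42 and 87.1. The astrocyte list summed to 835 and 1045 and the oligodendrocyte list to 1111 and 1153. Of 6 neuronal genes only Snap25 was well above background, at 82155 and 84015, the other probes reading from 3.91 to 10.2. No dendritic cell or border macrophage gene was detected. Detected probes of the T and NK, B and mast cell lists were those of Nkg7 (121 and 63.0), Pax5 (26.6 and 8.28, 20.4 and 23.7), Cd79b (5.43 and 37.0) and Mcpt4 (5.02 and 56.5). The part of these cells in the results was not tested. In sorted bulk samples such as these, fewer cells of a type and less RNA per cell cannot be told apart.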

How the data were processed

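The deposited scanner files hold linear fluorescence intensity per spot from Agilent Feature Extraction, version 10.7.1.1 per the file headers and 9.5.1.1 per the submitters' processing notes. The processed signal used is background-subtracted by that software, per the file headers. Per the labels' protocols, RNA was amplified and labelled with Cy3. Coordinates of probes are those of the files (mm9). The deposited series table holds intensity values with a median of 6.64 in each column, with its scaling not given in any source used. It served as an alternative, but its differences were close to those of quantile normalization (Il1b 2.88 and 2.95, Il1a -1.49 and -1.49).

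Control spots (3671 per array) and outlier spots (136 and 122) were left out, no spot was saturated, and the log2 signals of 1 probe's spots were averaged. A probe was well above background where more than 50% of its usable spots were: 13429 probes (24.1%) in control and 15385 (27.6%) in atopic diathesis. Log2 differences were centred on the median measured gene, which stood at -0.03 before centring. Names came from accessions matched to RefSeq for 27235 probes. The spread of repeated spots was 0.29 and 0.31 (SD of log2 signal, control and atopic diathesis) for signals of 20 to 40, 0.18 and 0.17 for 40 to 100, and 0.09 and 0.09 for 100 to 1000. Probes with 1 spot took the spread of their range. The scanner software's own error of the log2 difference exceeded this spot error for Il1a (0.21 and 0.13), Casp1 (0.21 and 0.13) and Il18 (0.30 and 0.25). It also did for Il1b (0.11 and 0.09), but not for Pycard (0.24 and 0.25). The intervals leave this error out. The number of arrays limits the precision.

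The genes named are all members with every probe, and from each of 6 lists the genes outside 2-fold, those with a bound of at least 2-fold and the 2 with the smallest difference. Others (Gsdmd, Tnf and Myd88 for their repeated spots, and undetected genes) were chosen after their values were seen. Members and lists were chosen with earlier results of these data known. Alternatives were other scalings, loess (span 0.4), normexp (offset 50), uncorrected signals, the series table, kept outlier spots, other background filters and the brightest probe per gene. R 4.3.3, limma 3.58.1 and Python 3.11.15 were used, and the scripts were tested on simulated data.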

Additional observations from a re-analysis of the deposited data

How the results depend on the processing

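Wherever both were measured, Il1b stayed higher and Il1a lower under every alternative given here. The log2 difference of Il1b was 2.77 with the 75th percentile of all probes, 2.68 with the median of all probes, 2.95 with quantile normalization, 1.78 with normexp, 1.60 with uncorrected signals and 2.88 in the deposited series table. That of Il1a was -1.96 with the 75th percentile of all probes, -2.06 with the median of all probes, -1.23 with normexp and -1.20 with uncorrected signals. The bound of Il1r1 was 4.19-fold with the 75th percentile of all probes, 2.19-fold with normexp and 1.90-fold with uncorrected signals. With the 75th percentile of detected probes, loess and kept outlier spots, Il1b and Il1a stayed within their spot intervals.

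Among the members, 1 probe was higher, and 2 were where detection on at least 1 array was enough or no filter was set, the second being Il1r1. That count was 0 where every usable spot had to be well above background, an alternative chosen after seeing the data. Of the other pathway probes 5 were higher. That count was 3 with the 75th percentile of all probes, 3 with the median of all probes, 3 with normexp, 2 with uncorrected signals, 13 with detection on at least 1 array and 17 with no filter. Of them 8 were lower, against 10 with the 75th percentile and 11 with the median of all probes, and 5 with normexp and with uncorrected signals. The lower count was 13 with detection on at least 1 array and 19 with no filter. Over all 11263 measured probes, 1981 were higher and 1834 lower. The counts over all probes were 1243 and 3163 with the 75th percentile, 1131 and 3538 with the median, 1269 and 1260 with normexp, and 1145 and 1171 with uncorrected signals. With detection on at least 1 array they were 5634 and 3526 of 17551, and with no filter 10275 and 4996 of 55669. Counts with looser filters include probes whose dim signal is background, and such folds are not measured. The causes of the other moves were not tested. No paired analysis was possible because each group has 1 array. Signals below about 20 limit what can be said of Il1rn, Il1rap and Nlrp3.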
